A study of Mus musculus with 30 samples.

Results

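The renin-angiotensin system was followed in mouse heart through 6 of its genes, taken by name from a table of 48820 genes: the precursor gene Agt, the peptidase genes Ace and Enpep, and the receptor genes Agtr1a, Agtr1b and Agtr2. All 6 were in the table, and the rule was their names alone. The hearts came from untreated wild-type mice at embryonic days 10.5, 12.5, 14.5, 16.5 and 18.5 (E10.5 to E18.5), postnatal day 1 (P1) and postnatal weeks 1, 2, 4 and 8 (1W to 8W). Each age had 3 libraries, 30 in all, made from heart RNA described as poly(A) RNA, which was not checked here. Whether the 3 libraries at an age stand for separate animals or pools is not labelled, so p-values measure the spread between these libraries, which may be partly technical. Strain and sex were not given, and the question was how the heart transcriptome changes with age.

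In the classical pathway, renin cuts angiotensinogen, the product of Agt, to angiotensin I, and angiotensin-converting enzyme, the product of Ace, trims that to angiotensin II. Aminopeptidase A, the product of Enpep, then removes the N-terminal residue of angiotensin II to give angiotensin III. Angiotensin II acts on the AT1 receptor, which mice make from Agtr1a and Agtr1b and which drives vasoconstriction and growth signals, and on the AT2 receptor, made from Agtr2, which is best known from fetal tissue and often opposes AT1. Circulating angiotensinogen comes mainly from liver and renin from kidney, whereas Ace is a typical endothelial gene, and Enpep is a known gene of pericytes.

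Levels are counts per 1000000 counts (CPM), scaled between libraries by trimmed-mean (TMM) factors. Changes were tested with edgeR's quasi-likelihood test, with Benjamini-Hochberg adjustment over the 19280 genes that passed its filter on low counts and a threshold of 0.05. Of the 6 genes, 5 passed the filter, and Agtr1b did not. All 5 changed across the 10 ages by the test over all ages, where 93.6% of all genes did. Library totals ranged from 23164934 to 50519452 counts.

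In these bulk samples, fewer cells of a type and less RNA per cell cannot be told apart. The replicate libraries were not equal at every age. At E10.5, replicate 2 had 32231 CPM of the small nuclear RNA gene Rn7sk against 6112.9 and 5666.5 CPM in the others. These Rn7sk values are per library total, without TMM factors. Rn7sk had 5666.5 CPM or more in every library, and how much RNA without poly(A) tails the libraries held was not tested. The TMM-scaled sum of 8 cardiomyocyte markers in E10.5 replicate 2 was 19870 CPM against 40250 and 31710 CPM. At P1, replicate 2 had 91.3 CPM over 7 liver markers against 34.6 and 20.04 CPM. Xist without Y-linked genes was seen in 13 libraries, Y-linked genes without Xist in 10 and both in 7, which were all 3 at E10.5, 2 at E12.5 and 2 at E14.5. All P1 libraries were of the Y-linked kind and all 4W and 8W libraries of the Xist kind. Sex and age are thus fully tied between P1 and 8W and partly tied over the series, and Agtr2 lies on chromosome X.

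The genes lie at separate places in GRCm38 by the GENCODE M21 annotation, and all are protein coding. Agt (ENSMUSG00000031980.9) spans chr8:124556534-124569706 on the minus strand and Ace (ENSMUSG00000020681.14) chr11:105967945-105989964 on the plus strand. Enpep (ENSMUSG00000028024.14) spans chr3:129269175-129332720 on the minus strand. Agtr1a (ENSMUSG00000049115.14 in the count table, version 15 in the annotation) spans chr13:30336441-30382867 on the plus strand, Agtr1b (ENSMUSG00000054988.9) chr3:20314473-20367177 on the minus strand and Agtr2 (ENSMUSG00000068122.10) chrX:21484544-21489164 on the plus strand. Ace shares 295 exon bases, 5.58% of its exon length, with the antisense gene Gm11651, which had 2 counts over all libraries. How strand was used in counting is not given in the sources used here.

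The AT1 receptor genes are near copies, which bears on how reads are divided between them. Their longest open reading frames have 1080 bases each, of which 90.8% are identical, whereas Agtr1a and Agtr2 share 53.2% of aligned bases. The longest stretch common to Agtr1a and Agtr1b runs from base 75 to base 140 of both reading frames, and is shown because a short read inside it fits either gene.
Agtr1a and Agtr1b: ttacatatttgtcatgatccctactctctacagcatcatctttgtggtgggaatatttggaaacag

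Promoter sequence was in the RefSeq table (GRCm38.p6) for 5 of the 6 genes: Agt, Ace, Enpep, Agtr1b and Agtr2. The windows of 250 bases before to 50 bases after each start were searched on both strands for the TATA-box letters TATAAA and TATATA, the latter its own reverse complement. Capitals mark a match, which reads TTTATA where TATAAA lies on the opposite strand. The lines run 5′ to 3′ in the gene's direction and show bases 80 to 4 before the start, except for Agtr2, where bases 45 to 16 before the RefSeq start are shown. They are printed to show where the TATA-box letters lie in members with different courses. The Agtr2 stretch lies inside the GENCODE M21 gene, whose start is upstream of the RefSeq one.
Agt, chr8:124569710-124569786, minus strand: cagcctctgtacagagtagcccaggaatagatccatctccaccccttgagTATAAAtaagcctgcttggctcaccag
Ace, chr11:105967868-105967944, plus strand: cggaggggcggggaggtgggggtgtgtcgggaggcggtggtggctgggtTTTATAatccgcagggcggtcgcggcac
Enpep, chr3:129332753-129332829, minus strand: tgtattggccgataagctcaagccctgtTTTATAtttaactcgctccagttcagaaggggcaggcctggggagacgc
Agtr1b, chr3:20367181-20367257, minus strand: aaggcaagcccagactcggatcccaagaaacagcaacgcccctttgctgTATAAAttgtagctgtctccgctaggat
Agtr2, chrX:21484579-21484608, plus strand: ccagtggacagagcgaaTATATAagaagga

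The match began 30 bases before the start in Agt and 31 in Agtr1b, on the gene's own strand. In Agtr2 it began 28 bases before the RefSeq start, and its letters TATATA read alike on both strands. In Ace it lay 31 bases before the start on the opposite strand. In Enpep it lay 52 bases before the RefSeq start on the opposite strand, with an overlapping pair of further matches at that start itself. The GENCODE M21 start of Enpep, at chr3:129332720, is downstream of the RefSeq one. The overlapping pair therefore lies upstream of the M21 start. A second RefSeq start of Ace, inside the gene, had neither motif in its window. Of 32851 promoter windows in the table, 17.1% hold TATAAA or TATATA, and the matches are a description of letters only.

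Agt, the precursor gene, was barely detected at the start of the series and climbed in 2 stages broken by a fall after birth. The 3 libraries at E10.5 had 0, 0 and 0.0243 CPM, a single count in all, and those at E12.5 had 0.318, 0.347 and 0.130 CPM. Levels were 1.81, 2.00 and 1.72 CPM at E18.5. The P1 libraries had 4.71, 8.26 and 5.46 CPM, all above E18.5, and the 1W libraries had 3.34, 3.47 and 2.95 CPM, all below P1. The gene then reached its highest level at 4W, with 9.03, 11.4 and 11.7 CPM, and 8W overlapped it with 7.54, 10.2 and 8.49 CPM. The rise from E18.5 to P1 was 1.73 ± 0.22 on the log2 scale (SE, adjusted p = 1.5e-07), the fall from P1 to 1W -0.92 ± 0.21 (adjusted p = 7.4e-04), and the rise from 1W to 2W 1.04 ± 0.21 (adjusted p = 2.6e-04), each by edgeR. The count ratio of E18.5 to E10.5 was 196.2, with a 95% interval of 34.81 to 7787 that covers counting error only.

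Liver marker levels varied between the libraries around birth. Their sum was 20.5 to 28.6 CPM at E18.5, 34.6, 91.3 and 20.04 CPM in P1 replicates 1, 2 and 3, and 7.24 to 7.51 CPM at 1W. Of 6 liver markers tested, 1 rose from E18.5 to P1 and 4 fell from P1 to 1W. The P1 library with the highest liver sum had the highest Agt, and the library with the lowest Agt, replicate 1, had a higher liver sum than replicate 3. At 2W and 4W the liver sums were 9.60 to 17.2 CPM, with Alb, Fgb and Serpina1a at 0 at 2W and Fgb at 0 at 4W. The sums rest largely on 1 gene, Ahsg, with means of 17.7 CPM at E18.5, 33.4 at P1, 5.95 at 1W, 10.2 at 2W and 15.8 at 4W. Alb had 5.17 CPM at E18.5, 9.29 at P1 and 0.237 at 1W, highest at P1 and lowest at 1W like the sum and Ahsg. Only later did Alb part from them, with 0 CPM at 2W and 0.109 at 4W. The part of liver RNA in the Agt level was not tested. Without P1 replicate 2, the rise of Agt up to P1 and its fall after P1 were still called.

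Ace, which encodes the converting enzyme, rose at every step up to P1 and ended far above its starting level. Its CPM were 1.78, 1.16 and 1.73 at E10.5, 3.99, 4.51 and 4.31 at E12.5, and 9.72, 9.76 and 9.84 at E14.5. At E16.5 they were 24.7, 26.7 and 22.8, and at E18.5 43.8, 48.6 and 30. At P1 the libraries spread from 60.1 to 133 CPM around a mean of 99.1 CPM. The neighbouring ages did not overlap up to this point. From P1 onward they overlapped, except for 1W and 2W: 85.9 to 91.1 CPM at 1W, 108 to 162 CPM at 2W, 119 to 126 CPM at 4W and 124 to 127 CPM at 8W.

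The Ace change from E10.5 to 8W was 6.32 ± 0.27 on the log2 scale (SE, edgeR adjusted p = 7.9e-16), an 80.1-fold rise. The step from E18.5 to P1 was 1.28 ± 0.20 (adjusted p = 2e-05). The later rise from 1W to 2W was 0.58 ± 0.19 (adjusted p = 0.025), and this call was lost without any single 1W library, without 2W replicate 2, with library size as the only scaling and with no filter. Summed levels of 9 endothelial markers went from 819 to 1059 CPM at E10.5 up to 2205 to 2346 CPM at 2W, and their part in the Ace rise was not tested.

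Enpep, the aminopeptidase gene, had its own course, with a maximum in mid-gestation. The libraries had 21.2, 15.9 and 20.5 CPM at E10.5, 35.8, 37.9 and 37.6 CPM at E12.5, and 55.7, 52.2 and 54.7 CPM at E14.5. They then came down to 41.4, 41.5 and 41.1 CPM at E16.5 and 30.8, 28.8 and 34.1 CPM at E18.5. None of these neighbouring groups overlapped. From E18.5 to 8W every library lay between 24.5 and 38.5 CPM, less than the lowest library of E16.5.

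The Enpep rises were 0.95 ± 0.09 on the log2 scale from E10.5 to E12.5 (SE, adjusted p = 3.2e-10) and 0.55 ± 0.09 to E14.5 (adjusted p = 3.8e-05). The falls were -0.39 ± 0.09 to E16.5 (adjusted p = 0.0013) and -0.40 ± 0.09 to E18.5 (adjusted p = 0.0014), all by edgeR. Summed levels of 8 pericyte markers rose without a mid-gestation maximum, from 487 to 501 CPM at E14.5 to 765 to 842 CPM at E18.5 and 2389 to 2467 CPM at 2W. The markers were uneven: 4 rose from E14.5 to E16.5 and 2 from E16.5 to E18.5, and none fell. From E14.5 to E18.5 Abcc9 went from 159 to 353 CPM and Rgs5 from 32.3 to 115 CPM, while Pdgfrb had 117 and 112 CPM. The part of pericytes in the Enpep course was not tested. Enpep at 8W was 0.66 ± 0.09 above E10.5 with TMM scaling (adjusted p = 1.6e-07) but -0.40 with library size as the only scaling, where it passed the threshold as a fall.

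**Figure D1:**
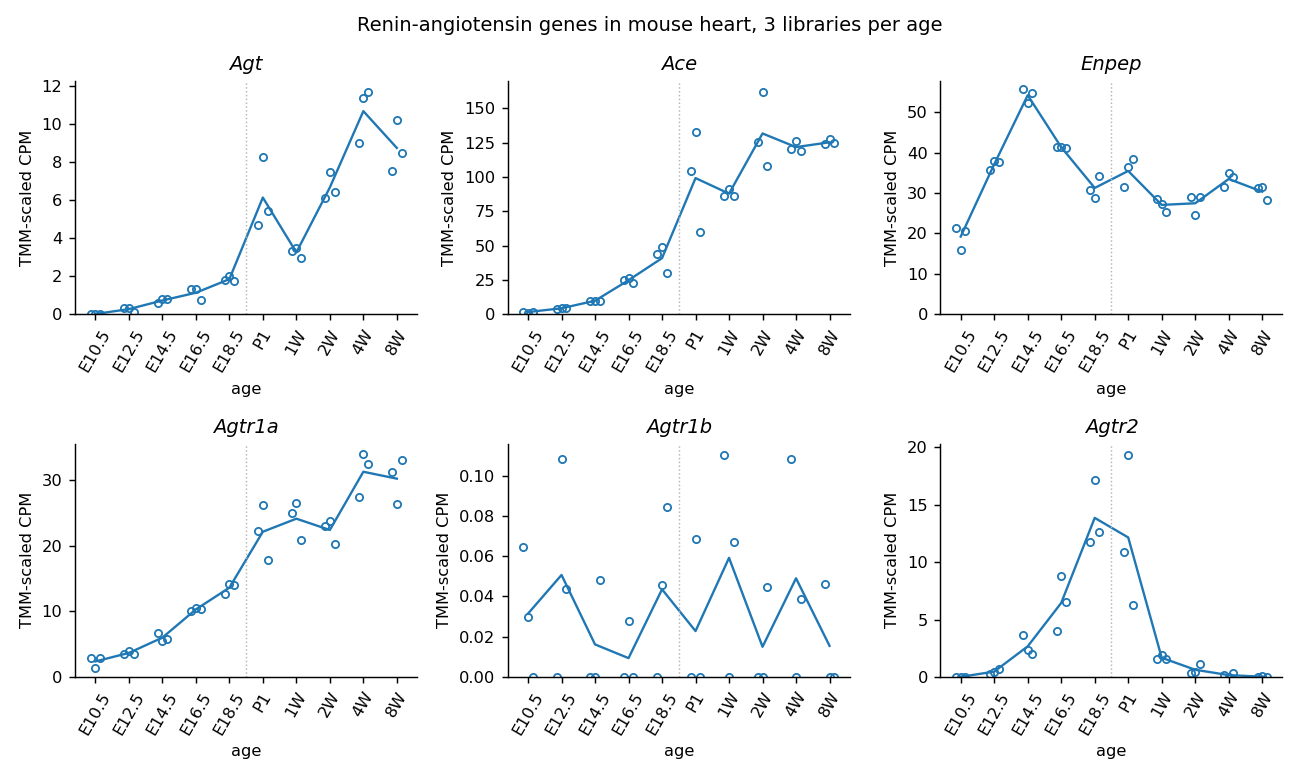
TMM-scaled CPM (vertical axes, linear from 0, a scale for each gene) against age for the 6 genes. Circles are single libraries, lines join the means of 3, and the dotted line parts prenatal from postnatal ages: Agtr2 is high from E16.5 to P1 and under 0.4 CPM in every 4W and 8W library, while Agtr1a and Ace keep their higher level after birth.

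Agtr1a, the main AT1 receptor gene of the heart libraries, rose from E10.5 to P1 and stayed high. The libraries had 2.84, 1.31 and 2.90 CPM at E10.5, 3.52, 3.91 and 3.50 CPM at E12.5, and 6.72, 5.46 and 5.73 CPM at E14.5. They had 10.04, 10.5 and 10.3 CPM at E16.5, 12.6, 14.1 and 14.03 CPM at E18.5, and 22.2, 26.2 and 17.9 CPM at P1. No neighbouring groups overlapped over this span. After birth the order of the means was P1 with 22.1 CPM, 2W with 22.4, 1W with 24.1, 8W with 30.2 and 4W with 31.3, and libraries of each neighbour in this order overlapped.

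Agtr1a changed by 3.67 ± 0.18 on the log2 scale from E10.5 to 8W (SE, adjusted p = 2.1e-18), a 12.8-fold rise. The step from E18.5 to P1 was 0.70 ± 0.15 (adjusted p = 4.4e-04) and that from 2W to 4W 0.48 ± 0.15 (adjusted p = 0.015), by edgeR. The latter call was lost without 2W replicate 3, 4W replicate 2 or 4W replicate 3. The early step from E10.5 to E12.5, 0.63 ± 0.19 (adjusted p = 0.0052), was lost without E10.5 replicate 2, when the change was 0.35.

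Agtr1b, the other AT1 receptor gene, was at the edge of detection at all ages. It had 33 counts over all 30 libraries, at most 5 in any of them and 0 in 15, and its highest library had 0.110 CPM. In the libraries without a count, 0 counts allow up to 0.0718 to 0.126 CPM, depending on depth. Per kilobase of exon, Agtr1b made up 1.91% of AT1 receptor counts at E10.5 and at most 1.69% on average at the other ages. The share did not pass the permutation test over the ages (100000 resamples, p = 0.071, also 0.071 after adjustment over the 2 shares tested), but fell under 0.05 without E10.5 replicate 3 or without E12.5 replicate 1. All 180 values of the 6 genes were whole numbers, so no fractional split of reads between Agtr1a and Agtr1b was visible, and how shared reads were assigned is not given in the sources used here.

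Agtr2, the AT2 receptor gene, was the member that came and went. No E10.5 library had a count, which allows up to 0.0284 CPM over the 3 libraries. Levels were 0.245, 0.412 and 0.718 CPM at E12.5, 3.66, 2.36 and 1.96 CPM at E14.5, and 4.01, 8.82 and 6.50 CPM at E16.5. The highest mean, 13.9 CPM, was at E18.5, with 11.8, 17.2 and 12.6 CPM. The P1 libraries, 10.9, 19.4 and 6.23 CPM, lay on both sides of those of E18.5. At 1W the libraries had 1.52, 1.89 and 1.59 CPM, well below the lowest P1 library. They had 0.358, 0.421 and 1.08 CPM at 2W, 0.144, 0 and 0.310 CPM at 4W, and 0, 0.0378 and 0 CPM at 8W, a single count at the last age.

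The Agtr2 level at E18.5 was at least 501.9-fold higher than at E10.5, taking a floor of 3 counts over the E10.5 group. The fall from P1 to 1W was -2.86 ± 0.43 on the log2 scale (SE, edgeR adjusted p = 2.2e-05), or 7.28-fold. The count ratio of P1 to 8W was 879.2, with a 95% interval of 157.5 to 34760 for counting error alone. Further declines from 1W to 2W, -1.45 ± 0.56 (adjusted p = 0.059), and from 2W to 4W, -2.11 ± 0.88 (adjusted p = 0.078), missed the threshold, although their libraries did not overlap, and DESeq2 called both.

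The later prenatal steps of Agtr2 were less secure than the fall after birth. The step to E16.5, 1.28 ± 0.41 (adjusted p = 0.025), was lost without E14.5 replicate 2 or 3 or E16.5 replicate 2 or 3. The step to E18.5, 1.10 ± 0.39 (adjusted p = 0.042), was lost in 20 of 40 alternatives. These included DESeq2, no filter, library size alone, the 6 samples alone, and leaving out any single E18.5 library or E16.5 replicate 1 or 3. Leaving out some single libraries of other ages also lost it. With a term for sex in the model, the fall from P1 to 1W was -2.94 and was still called, whereas the step to E18.5 was not.

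The receptors were also compared within each library, which needs no scaling between libraries. Per kilobase of exon, the level of Agtr1a exceeded that of Agtr2 at every age mean, but the gap narrowed before birth and opened after it. The share of Agtr2 in the receptor counts per kilobase of Agtr1a, Agtr1b and Agtr2 was 0% at E10.5 and 5.50, 7.86 and 14.5% in the E12.5 libraries. At E18.5 the libraries had 43.9, 50.4 and 42.8%, a mean of 45.7% ± 4.1 (SD, n = 3). The libraries had 29.1, 38.1 and 22.6% at P1 and 4.83, 5.62 and 5.97% at 1W, and at most 0.792% at 4W and 0.120% at 8W. The share changed across the ages (permutation test, 30 libraries, p = 1e-05, adjusted 2e-05, the smallest these resamples can give).

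**Figure D2:**
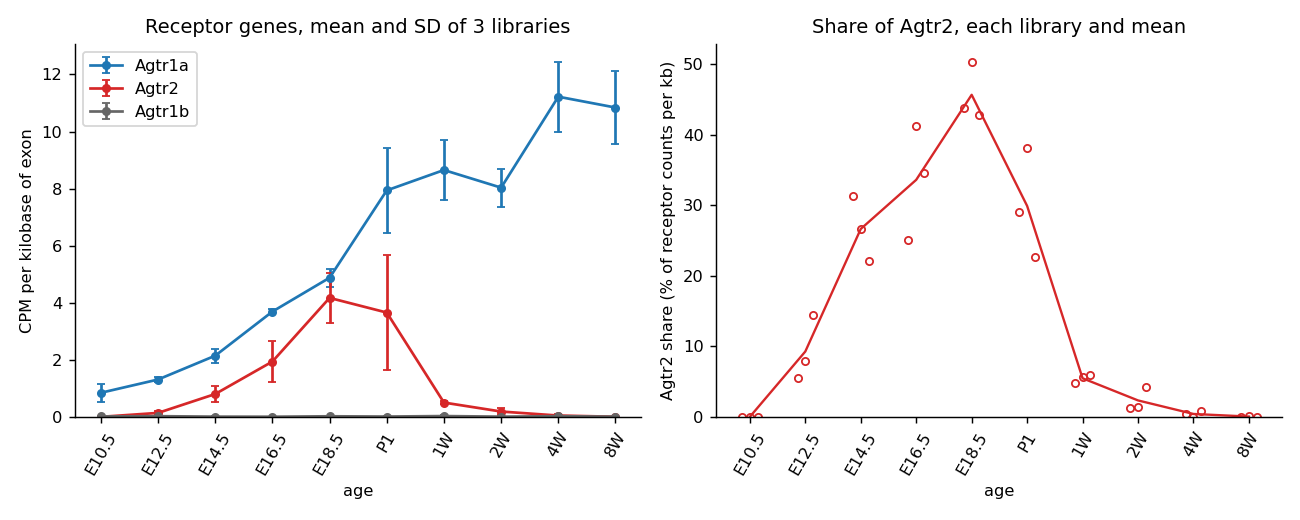
Left, levels of the 3 receptor genes in CPM per kilobase of exon against age, as mean and SD of 3 libraries. Right, the share of Agtr2 in the summed receptor counts per kilobase, each circle a library and the line the mean: the share peaks at 45.7% at E18.5 and is 0.0401% at 8W.

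All tested members rose up to E14.5, and between E14.5 and E18.5 Enpep fell while others rose. From E10.5 to E12.5 all 5 tested members rose, where 55.4% of all genes changed, 31.0% rising and 24.4% falling. From E12.5 to E14.5 all 5 rose again, where 18.3% of genes changed, 10.5% rising and 7.8% falling. From E14.5 to E16.5 Agtr1a, Agtr2 and Ace rose and Enpep fell, 4 of 5, against 26.0% of all genes, 14.1% rising and 12.0% falling. From E16.5 to E18.5 Agtr2, Ace and Agt rose and Enpep fell, again 4 of 5, against 24.2% of all genes, 13.0% rising and 11.2% falling. That count came to 1 without E18.5 replicate 2, and to 2 without E16.5 replicate 3, E18.5 replicate 1 or E18.5 replicate 3.

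Around and after birth fewer members passed the test. From E18.5 to P1 Agtr1a, Ace and Agt rose, 3 of 5, against 38.8% of all genes, 19.8% rising and 19.0% falling. From P1 to 1W Agtr2, Agt and Enpep fell, 3 of 5, against 35.8% of all genes, 18.8% rising and 17.0% falling. Neither Agtr1a, 0.12 ± 0.15, nor Ace, -0.17 ± 0.19, passed the test at this step. From 1W to 2W Ace and Agt rose, 2 of 5, against 29.6%, 15.5% rising and 14.1% falling. From 2W to 4W Agtr1a, Agt and Enpep rose, 3 of 5, against 28.9%, 15.8% rising and 13.0% falling, and the count was 1 without 4W replicate 2 or 4W replicate 3. From 4W to 8W no member passed the edgeR test, where 23.9% of genes did, 11.8% rising and 12.1% falling. At an unadjusted p under 0.05 there was also none in this fit, 2 when edgeR was fitted to the 6 samples alone and 1 by DESeq2, and neither of the latter had any adjusted.

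**Figure D3:**
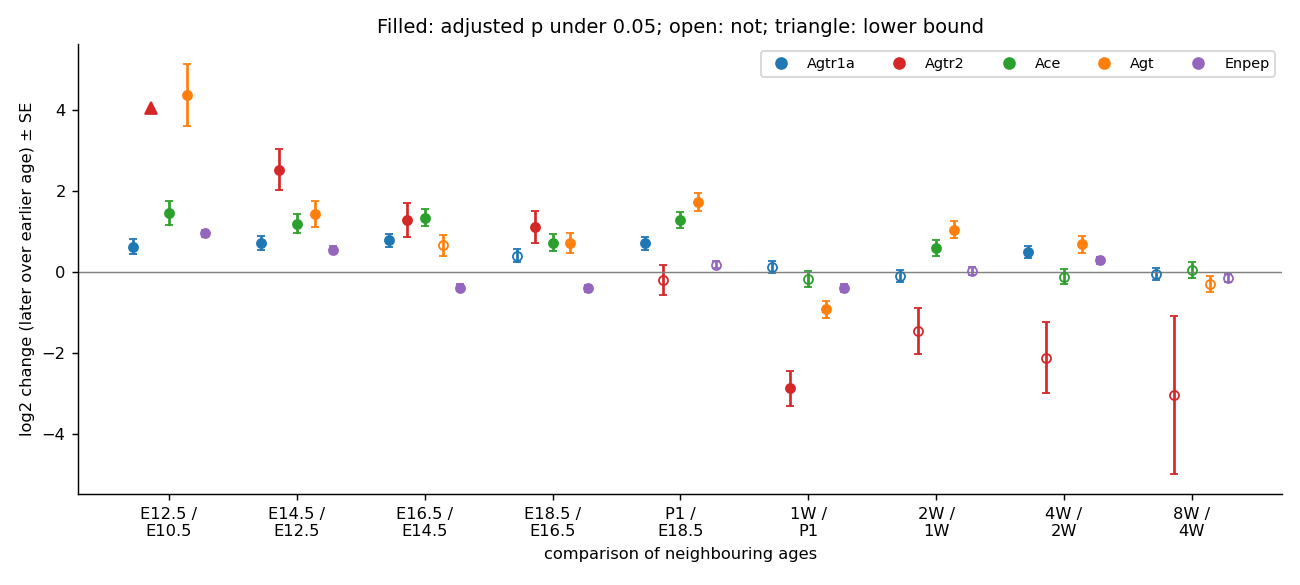
Log2 change between neighbouring ages (vertical axis, later over earlier, with its standard error) for the 5 tested genes. Filled circles passed the adjusted threshold and open circles did not, the triangle is a lower bound because E10.5 had no Agtr2 count, and the first Agt value rests on a single count at E10.5: the lowest filled value is Agtr2 from P1 to 1W.

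Over the longer spans, all 5 tested members rose from E10.5 to E18.5, where 63.3% of all genes changed, 32.9% rising and 30.4% falling. Their median change was 4.71 on the log2 scale against -0.001 for all genes, and it is the same with Agtr2 at its bound. From E10.5 to 8W all but Agtr2 rose, 4 of 5, against 79.9% of all genes, 37.8% rising and 42.1% falling. From P1 to 8W Agtr1a and Agt rose and Agtr2 and Enpep fell, 4 of 5, against 66.8% of all genes, 31.8% rising and 35.1% falling, and the count was 1 without P1 replicate 3.

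The P1 to 8W directions of 3 members depend on the scaling. With library size as the only scaling, the median of all genes shifts by -0.772 on the log2 scale, all genes called go from 6123 rises and 6763 falls to 2225 and 12577, and Agtr1a, Ace and Agt turn from 0.45, 0.34 and 0.51 to -0.32, -0.44 and -0.26. The fall of Agtr2 between these ages held under every scaling tried. By Xist and Y-linked genes the P1 and 8W libraries also differ in sex, so age and sex cannot be told apart between them. Mitochondrial transcripts took 5.3 to 6.9% of the counts at P1 and 18.9 to 19.2% at 8W.

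Among the members, the age profiles of Agtr1a, Ace and Agt were closely correlated, and Agtr2 and Enpep differed from them. Over the 10 age means of log2 CPM, Pearson's r was 0.994 for Agtr1a with Ace, 0.982 for Agtr1a with Agt and 0.985 for Ace with Agt. It was 0.507 for Agtr2 with Enpep. Pearson's r does not measure the size of change. From E10.5 to 8W the log2 changes were 3.67 for Agtr1a, 6.32 for Ace and 9.38 for Agt, the last against a single count. From P1 to 1W Agt fell by -0.92, whereas Agtr1a and Ace did not pass the test. The age means share libraries, so the r values only describe the profiles.

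Genes outside the pathway were ranked by the same measure among 10278 genes. Most like Ace were Cd300lg, a gene of capillary endothelium (r = 0.997), Cpped1, Dip2c, Nav2 and Srl. Most like Agtr1a were Srl, which encodes the sarcoplasmic reticulum protein sarcalumenin (r = 0.995), Dip2c, Pitpnc1, Ace itself (r = 0.994) and Cpped1. Most like Agt were Rnase4 (r = 0.994), Selenop, the plasma selenoprotein gene, Xirp1, Pla2g4e and C1ra. Agtr2 ran closest to Acan, the gene of the cartilage and valve proteoglycan aggrecan (r = 0.982), which had its highest mean, 52.8 CPM, at P1 and its lowest, 1.25 CPM, at 8W. Prss12, Cfap69 and Spats2l were next. Enpep had looser company, led by Lrp1b (r = 0.953), Grm3, Rapgefl1, Ccdc3 and Glb1, all of which had their highest mean at E14.5.

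Other angiotensin-processing genes and receptors were read from a list of 22, of which 21 were in the table and 18 were tested. From E10.5 to E18.5, 11 rose and 4 fell, with a median change of 0.72 against -0.001 for all genes. Of all genes, 63.3% changed over this span, 32.9% rising and 30.4% falling. The rises were led by genes of mast cell proteases. Cma1 went from 0.046 ± 0.045 CPM to 7.15 ± 0.35 (SD, n = 3), Cpa3 from 0.0991 to 7.17 CPM and Mcpt4 from 0.0577 to 1.03 CPM. Mme, the neprilysin gene, fell from 28.9 ± 4.7 to 3.74 ± 0.17 CPM, and Thop1, Atp6ap2 and Dpp3 fell by 0.63, 0.62 and 0.47 on the log2 scale.

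From E18.5 to P1, 6 of the 18 rose and 2 fell, with Mcpt4, Ctsd, Cma1 and Ctsa rising and Rnpep and Prep falling, and with library size as the only scaling 3 rose and 3 fell. From P1 to 8W, 8 rose and 7 fell. Among all genes, 38.8% changed from E18.5 to P1 and 66.8% from P1 to 8W. Mme came back to 17.8 ± 1.5 CPM, and Ctsd, the cathepsin D gene, went from 514 ± 46 to 1590 ± 24 CPM. Cma1 fell to 1.01 CPM and Cpa3 to 0.788 CPM. Summed levels of 9 mast cell markers, which include Cma1, Cpa3 and Mcpt4, were 18.3 to 24.0 CPM at E10.5, 56.5 to 80.4 CPM at P1 and 15.2 to 17.1 CPM at 8W, and their part in these changes was not tested. With library size as the only scaling, the P1 to 8W split was 3 rises and 12 falls.

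Further genes of the system, Ren1 and Mas1, were scarce in the heart. Ren1, the renin gene, had age means between 0.0562 and 0.714 CPM and fell from 0.611 ± 0.237 CPM at P1 to 0.0574 ± 0.0501 at 8W. Kidney markers summed to at most 1.16 CPM in any library, with Umod and Slc34a1 at 0 at every age. Mas1, the angiotensin 1-7 receptor gene, had age means of 0.275 CPM at E18.5 and 0.813 CPM at 8W.

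**Figure D4:**
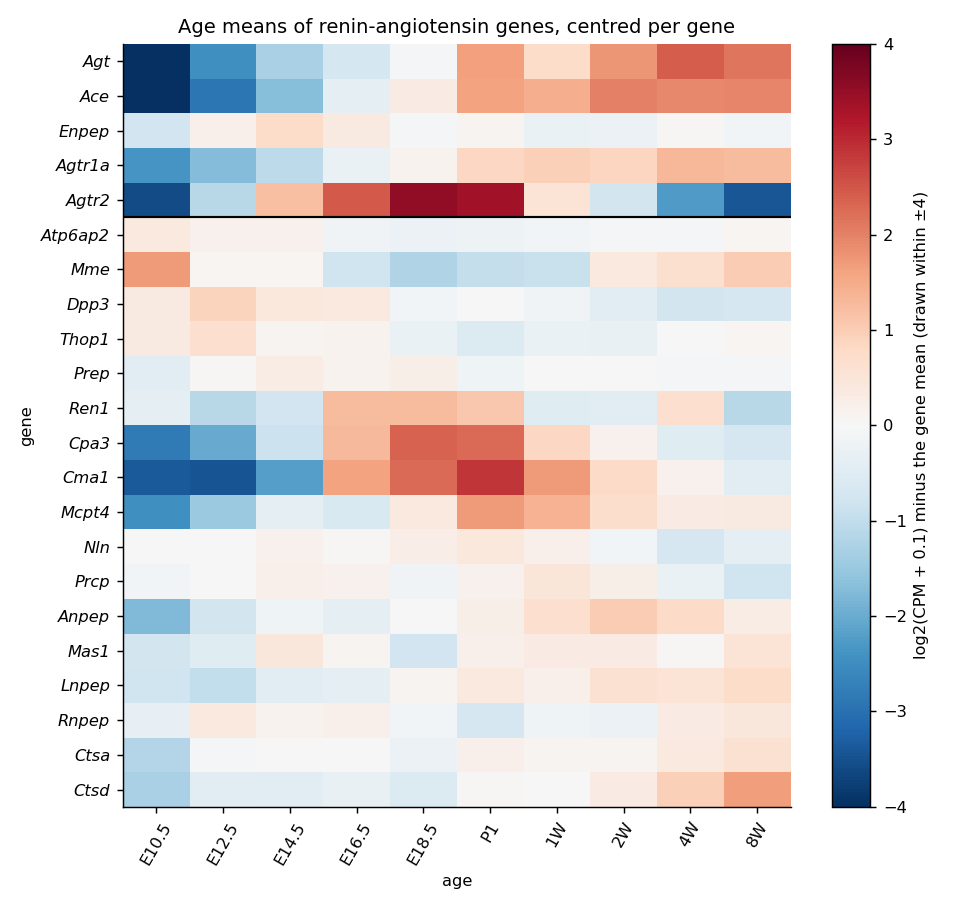
Age means of log2(CPM + 0.1) minus each gene's mean over the ages, drawn as colour within ±4, for the 5 tested members above the line and other tested genes of the list below it, ordered by the age of their highest mean. Agtr2, Cma1, Cpa3 and Mcpt4 are high at P1, and Mme is low from E16.5 to 1W and high at both ends.

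Of 25 receptor partners and signalling genes, all tested, 19 rose and 3 fell from E10.5 to E18.5. The share of all genes that changed was 63.3% over this span, 38.8% from E18.5 to P1 and 66.8% from P1 to 8W. Zbtb16, whose product binds the AT2 receptor, rose from 1.76 ± 0.56 to 18.5 ± 2.3 CPM, and Rgs5, a regulator of G-protein signalling and a pericyte marker, from 22.2 to 115 CPM. Rgs4 and Arap1 also rose, by 1.87 and 1.84 on the log2 scale, and Gnai3, Arrb2 and Prkce fell. From E18.5 to P1, 11 rose and 2 fell, led by Zbtb16, Rgs2, Arrb2 and Arrb1, with Prkca and Gnai3 falling, and with library size as the only scaling 7 rose and 3 fell. From P1 to 8W, 13 rose and 7 fell: Rgs5 reached 663 ± 65 CPM and Zbtb16 163 ± 84 CPM, while Itpr2 fell from 150 to 61.2 CPM and Grk3 from 70.9 to 29.2 CPM. With library size as the only scaling this split was 4 rises and 15 falls.

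Genes often induced by angiotensin II rose and fell at different ages. Of 11 tested, 5 rose and 1 fell from E10.5 to E18.5, where 63.3% of all genes changed. From E18.5 to P1, 4 rose and 1 fell, against 38.8% of all genes. From P1 to 8W, 2 rose and 7 fell, against 66.8% of all genes, 31.8% rising and 35.1% falling. The median change over this last span was -1.279 on the log2 scale against -0.104 for all genes. With library size as the only scaling the split was 2 rises and 9 falls. Ccn2, the connective tissue growth factor gene, went from 130 ± 11 CPM at E18.5 to 507 ± 149 CPM at P1, a change of 1.97 ± 0.21 on the log2 scale (SE, edgeR adjusted p = 1.3e-07), and its mean was 151 CPM at 1W. Ccn1 rose from 27.9 to 87.2 CPM over birth. Lox, a collagen crosslinking enzyme gene, fell from 80.1 to 8.54 CPM from P1 to 8W, when Spp1, Timp1 and Ccn2 fell as well and Cybb rose.

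In the aldosterone axis 6 of 10 listed genes were tested. Nr3c2, the mineralocorticoid receptor gene, rose from 1.25 ± 0.53 CPM at E10.5 to 16.8 ± 1.7 CPM at E18.5 and 50.9 ± 2.5 CPM at 8W. Sgk1, one of its targets, rose from 40.0 to 107 CPM over birth, and Hsd11b2, whose product shields the receptor from glucocorticoids, fell from 4.07 to 0.229 CPM before birth. The aldosterone synthesis genes Cyp11b1 and Cyp11b2 had no count in any library. Over the whole list 2 rose and 1 fell from E10.5 to E18.5, 1 rose from E18.5 to P1, and 2 rose and 3 fell from P1 to 8W. All genes changed by 63.3%, 38.8% and 66.8% in number over these spans. With library size as the only scaling the last split was 2 rises and 4 falls.

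In the kinin system, whose peptides Ace also degrades, 4 of 8 listed genes were tested. From P1 to 8W, 2 rose and 1 fell (1 and 1 with library size as the only scaling), where 66.8% of all genes changed. Cpn2 went from 0.221 ± 0.054 to 3.94 ± 0.64 CPM and Cpm from 5.66 ± 0.22 to 10.7 ± 1.9 CPM, and Bdkrb2, a bradykinin receptor gene, fell from 0.620 to 0.157 CPM. Kng1, the kininogen gene, had 99 counts over all libraries and was not tested.

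**Figure D5:**
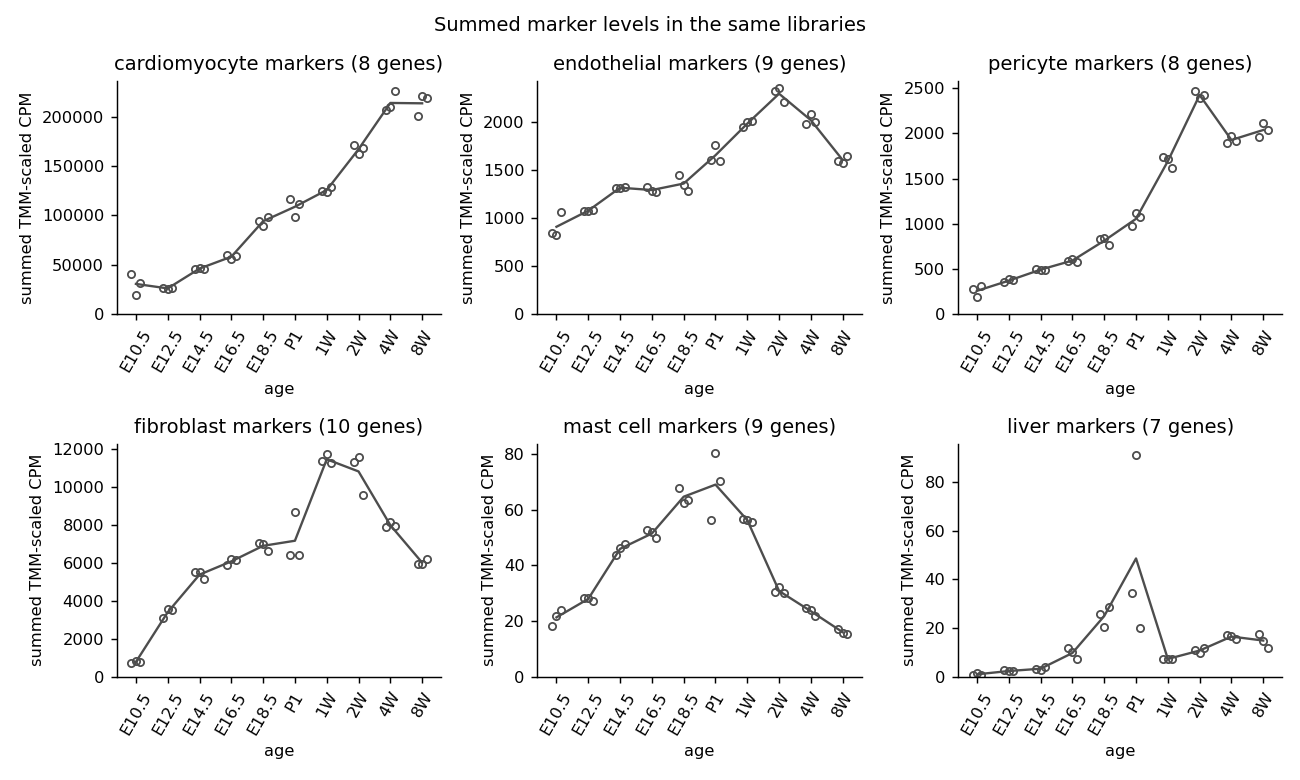
Summed TMM-scaled CPM (vertical axes, linear from 0) of 6 lists of cell type markers against age in the same libraries. Circles are libraries and lines the means of 3: cardiomyocyte markers have their highest mean at 4W, pericyte and endothelial markers are highest at 2W, mast cell markers at P1, and the liver sum of P1 replicate 2, 91.3 CPM, stands above all others.

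The heart markers were present at every age. The 8 cardiomyocyte markers summed to 19870 to 40250 CPM at E10.5 and 200400 to 220900 CPM at 8W, and 10 fibroblast markers to 730 to 819 CPM at E10.5, 11240 to 11710 CPM at 1W and 5911 to 6186 CPM at 8W. At P1, replicate 2 had the highest and replicate 3 the lowest value of Agtr1a, Agtr2 and Ace. Replicate 2 also had the highest fibroblast sum of that age, 8676 CPM against 6410 and 6387 CPM, and its part in the spread of the P1 libraries was not tested. Without P1 replicate 2 the Ace change from P1 to 1W was 0.10 in place of -0.17, and without P1 replicate 3 the Agtr2 change from E18.5 to P1 was 0.11 in place of -0.19, none of them past the threshold. Without P1 replicate 3 the Ace change from P1 to 1W was -0.42 and passed it.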

How the data were processed

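The deposited table holds expected counts per gene from the authors, in 1 column for each of the 30 libraries. Of its values, 6.94% are not whole (tolerance 1e-06), and all were rounded before testing. Per the submitters' processing notes, the builds were GRCm38 and mm10 and the tools included STAR 2.5.3a and fastp 0.18.0, with no roles stated. For the read counter, its annotation and its use of strand, the setting is not given in the sources used here. Symbols were taken from GENCODE M21 by Ensembl identifier without version, for 48144 of 48820 genes. Genes without a symbol held 0.225% of counts.

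A single edgeR 4.0.16 fit (R 4.3.3) held all 30 libraries as 10 group means, with filterByExpr, TMM scaling and robust quasi-likelihood F tests, leaving 20 residual degrees of freedom. It gave a test over all ages and 12 comparisons of pairs of ages. Standard errors are log2 changes over the root of their F statistic. Levels per kilobase use the union of annotated exons. Count ratios carry exact 95% intervals, and groups at 0 a floor of 3 counts. Only the edgeR fit was tested on simulated data, in some of the comparisons and with changes placed only in genes of higher mean level.

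The 6 genes and the gene lists were chosen with earlier results of these data known. From each list, the text names at most 4 genes per direction with the largest changes among those called, and for likeness the 5 genes with the highest Pearson r over the age means of log2 CPM (prior count 2) that reach 1 CPM and span 2-fold. Marker levels, Ren1, Mas1 and Kng1, the later level of Ccn2 and the untested genes were named outside that rule, after their values were seen. Of the listed genes, Ren2 was not used here. A few genes that this rule names are not reported here, and the list counts include them. Alternatives were other scalings and filters, mitochondrial genes left out, a replicate block, a sex term, the 6 samples alone, DESeq2 1.42.0 and leaving out each library.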

Additional observations from a re-analysis of the deposited data

How the results depend on the processing

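Outside the tests that leave out a library, 555 of the values recomputed under other settings kept their direction and side of the threshold, 13 came to pass it, 20 no longer passed it and 8 turned direction. With library size as the only scaling, Enpep from 1W to 2W turned to -0.26, Ace from 4W to 8W to -0.11, Agtr1a, Ace and Agt from P1 to 8W to -0.32, -0.44 and -0.26, and Enpep from E10.5 to 8W to -0.40. With upper quartile factors, Enpep from 1W to 2W was -0.012 and Ace from 4W to 8W -0.0096. The count of members changed was 3 in place of 5 from E10.5 to E12.5 when only the 6 samples were fitted, 2 in place of 4 from E16.5 to E18.5, 1 in place of 3 from 2W to 4W and 1 in place of 0 from 4W to 8W with library size alone, 1 in place of 2 from 1W to 2W with no filter, and 2 in place of 4 from P1 to 8W with upper quartile factors. Some members did not pass the filter when only 6 samples were fitted and have no value there. The cause of these changes was not tested.

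Leaving out each library in turn kept 1735 values, lost 43, gained 14 and turned 8. The count of members changed ranged from 1 to 5 from E16.5 to E18.5, from 1 to 3 from 1W to 2W, from 1 to 4 from 2W to 4W and from 1 to 4 from P1 to 8W. Among single genes, values ranged from -0.70 to 0.11 for Agtr2 from E18.5 to P1, from -0.42 to 0.10 for Ace from P1 to 1W, from -0.027 to 0.093 for Enpep from 1W to 2W, from -0.24 to 0.063 for Ace from 2W to 4W and from -0.14 to 0.041 for Agtr1a from 4W to 8W. The span of the Agtr1b share over the ages ranged from 1.63 to 2.80 percentage points (1.85 with all libraries).

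Libraries with the same replicate number did not deviate together: of 36 correlations, 2 were over 0.1, and no comparison had all 3 over it. With the replicate number as a block, 5 members in place of 4 passed from P1 to 8W, Ace being added with 0.37, and 5 in place of 4 from E14.5 to E16.5, Agt being added with 0.65. Depth limits Agtr1b at every age and the change of Agtr2 from 4W to 8W, and sizes of change against Agt at E10.5 or Agtr2 at 8W have wide counting intervals.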
